A study of Mus musculus with 2 samples.

Results

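The 10 genes described here encode the machinery that takes a mammalian cell from G1 into S phase: the D cyclins Ccnd1, Ccnd2 and Ccnd3, the E cyclins Ccne1 and Ccne2, the cyclin-dependent kinases Cdk2, Cdk4 and Cdk6, the inhibitor Cdkn1b (p27) and the retinoblastoma gene Rb1. They were taken by name from a table of 31017 genes, and all 10 were present in it. The table holds 1 group of 2 RNA-seq libraries from untreated TUBO cells grown flat on plastic in DMEM/F12 with serum. TUBO is a cloned mammary carcinoma line from a BALB/c mouse with a rat Her2/neu transgene under a mammary tumour virus promoter, so it stands for 1 tumour. No second condition was analysed here, and the measurement is the level of each gene. Nothing in the labels says that the replicates were separate cultures, so a difference between these samples may be technical. The main p-values given below cover counting error only, and no p-value measures the spread between cultures. In a bulk sample, fewer cells expressing a gene and less RNA per cell cannot be told apart.

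In G1, D cyclins are made in answer to growth factor signals and bind CDK4 or CDK6. These kinases start the phosphorylation of RB, which in its unphosphorylated form holds E2F transcription factors and keeps S-phase genes off. E2F released from RB turns on the E cyclins, which bind CDK2 and complete the phosphorylation. p27 inhibits cyclin E-CDK2 and is itself held by cyclin D complexes. ERBB2 signalling is known to raise cyclin D1 in mammary epithelium, and mice without cyclin D1 resist mammary tumours driven by Neu.

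Replicate 1 held 35453278 counts and replicate 2 held 34098259. Levels are CPM (counts scaled to library size), scaled with TMM factors of 1.005 and 0.995. They are given as mean ± SD (n = 2), and CPM per kb is that level divided by the total length of the gene's exons. A count of 0 allows up to 0.0842 and 0.0885 CPM, counting error only. All 7 fixed markers of mammary epithelium, such as Krt8, Epcam and Elf5, were at or above 1 CPM in both libraries, which is called detected here. Of 19 markers of fibroblasts, leukocytes, endothelium and adipocytes none was detected. Their summed levels ran from 0.0281 to 1.04 CPM per library and cell type, and Ptprc, Dcn, Cdh5 and Plin1 had no count.

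Because the D cyclins, the E cyclins and the kinases are related in sequence, their coding regions were compared to see whether reads could be confused between members. No 50-base window of any member's transcripts occurred in the transcripts of another member. The closest ungapped stretches of 60 coding bases are shown for the most similar pair of each family, in capitals where the pair differs (GRCm38, read along each gene's own strand). The Ccnd1 stretch spans the junction of exons 1 and 2 (chr7:144938068-144939520, minus strand) and differs from Ccnd2 (chr6:127148845-127150606, minus strand, exons 1 and 2) at 7 bases. The longest identical coding run of that pair was 20 bases.
Ccnd1: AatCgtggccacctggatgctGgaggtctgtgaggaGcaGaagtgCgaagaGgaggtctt
Ccnd2: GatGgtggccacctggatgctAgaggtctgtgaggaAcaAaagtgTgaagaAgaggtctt
The E cyclin stretch crosses exons 7 and 8 in both genes (Ccne1 at chr7:38099872-38100601, minus strand, and Ccne2 at chr4:11197253-11198741, plus strand) and differs at 11 bases.
Ccne1: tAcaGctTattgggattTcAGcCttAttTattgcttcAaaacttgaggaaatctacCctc
Ccne2: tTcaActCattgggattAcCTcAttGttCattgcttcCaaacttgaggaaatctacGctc
Cdk4 and Cdk6 were closest within exon 4 of each (chr10:127064943-127065002 and chr5:3429099-3429158, plus strand), with 12 differences.
Cdk4: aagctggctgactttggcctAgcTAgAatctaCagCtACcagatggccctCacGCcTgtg
Cdk6: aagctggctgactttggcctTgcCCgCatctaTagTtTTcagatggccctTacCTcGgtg
Even these most alike ungapped stretches differed at 7 or more of 60 bases. Cdk2 was closest to Cdk4, with 15 of 60 bases different.

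Some members overlap genes on the opposite strand. The libraries were made with a stranded kit, but whether the counting used strand is not given in the sources used here. Exons of LTO1 (listed as Oraov1 in the table) cover 23.4% of the exonic bases of Ccnd1, and that gene stood at 20.7 ± 0.0169 CPM against 1601 CPM for Ccnd1. Tspan31 covers 19.7% of Cdk4 and stood at 54.1 ± 0.599 CPM against 267 CPM. For Ccne2 the overlapping gene, Ints8, was higher in CPM, at 63.5 ± 2.20 against 36.5 CPM. Per kb of all exons Ints8 was lower, at 8.50 ± 0.294 against 10.4 CPM per kb. Its exons cover 17.4% of the exonic bases of Ccne2. Rcbtb2 and Lpar6 cover 8.11% and 6.78% of Rb1, at 36.8 ± 0.616 and 20.4 ± 0.481 CPM. Bysl covers 4.11% of Ccnd3 and was lower in CPM, at 35.03 ± 2.51 against 62.2 CPM. Per kb of all exons Bysl was higher, at 9.09 ± 0.651 against 7.08 CPM per kb. Of the 50-base windows of Ccnd3, 5.39% occur in other genes, among them Bysl and Ccnd3-ps. Levels of Ccne2, Rb1, Cdk4, Ccnd3 and Ccnd1 carry this uncertainty, while Cdkn1b and Ccne1 overlapped no other exon and shared no 50-base window with any other gene.

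All 10 members were detected, where 37.7% of all genes in the table were. Their levels spanned from 6.59 CPM for Ccnd2 to 1601 CPM for Ccnd1, and 3 of them (Ccnd1, Cdk4 and Cdkn1b) were above 100 CPM in both libraries. The members are cell cycle genes in a growing line and were picked by name, so their shared detection is a description of the list.

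**Figure D1:**
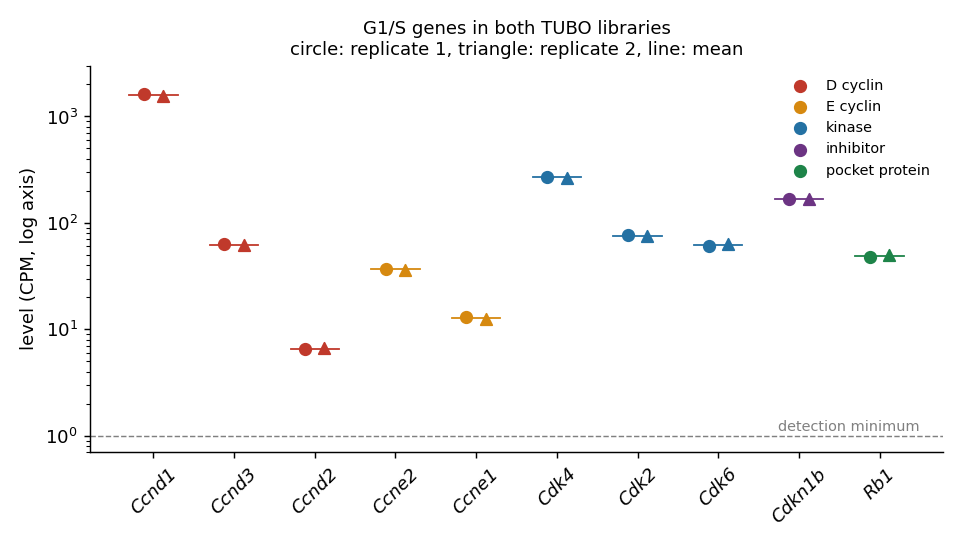
Level of each member in CPM on a log axis, grouped by role, with replicate 1 as circles, replicate 2 as triangles and the mean as a line; the dashed line is the detection minimum of 1 CPM. The replicates nearly coincide for each gene, while Ccnd1 at 1601 CPM stands far above Ccnd3 at 62.2 and Ccnd2 at 6.59 CPM.

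Ccnd1 was by far the most abundant D cyclin transcript. Ccnd1 (chr7:144929931-144939925, minus strand, 5 exons in its main transcript) had 58178 counts in replicate 1 and 53216 in replicate 2, or 1632 and 1569 CPM. It alone took 0.164% and 0.156% of all counts. Divided by 4.709 kb of exons its level was 339.9 ± 9.47 CPM per kb, rank 52 of 30416 genes with a length and above 99.6% of the detected genes.

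The genes next to it in level per kb were Rpl19, a large-subunit ribosomal protein gene (356 and 359 CPM per kb in replicates 1 and 2), the keratin gene Krt8 (356 and 342) and the desaturase gene Scd2 (349 and 334) above, where Ccnd1 had 347 and 333. Below came the 14-3-3 epsilon gene Ywhae (345 and 333), the MHC class I light chain gene B2m (335 and 329) and the actin crosslinker gene Actn4 (333 and 314). The ranges of Krt8, Scd2, Ywhae and B2m over the libraries overlap that of Ccnd1, and those of Rpl19 and Actn4 do not. This rank and these neighbours in level hold for all exonic bases as the length. With each other length tried Ccnd1 stood at 428.0 CPM per kb and Krt8 at 349.2.

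Ccnd3 (chr17:47505051-47599691, plus strand) had 2238 and 2087 counts, or 62.8 and 61.5 CPM. Ccnd2 (chr6:127125162-127152193, minus strand) had 233 and 225 counts, or 6.54 and 6.63 CPM, and was the lowest member on either scale. Per kb, Ccnd3 stood at 7.08 ± 0.101 and Ccnd2 at 0.700 ± 0.00732. Ccnd2 lay above only 6.30% of the detected genes and Ccnd3 above 48.2% of them, near the middle.

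The ratio of Ccnd1 to Ccnd2 per kb was 499 in replicate 1 and 473 in replicate 2 (486 ± 18.6), and that of Ccnd1 to Ccnd3 was 48.4 and 47.5 (48.0 ± 0.655). Ccnd1 made up 97.8 ± 0.0347% of the summed D cyclin level per kb, Ccnd3 2.04 ± 0.0271% and Ccnd2 0.201 ± 0.00765%. The size of these ratios depends on the length used, and Ccnd3 has 8.775 kb of exonic bases over all its transcripts against 2113 bases in the transcript with its longest coding region. With that length, Ccnd1 to Ccnd3 was 14.5 ± 0.198 and the share of Ccnd1 was 93.4 ± 0.0899%. With the median length of coding transcripts the share was 84.8 ± 0.203% and the ratios were 6.12 ± 0.0835 to Ccnd3 and 64.6 ± 2.48 to Ccnd2, and Ccnd1 remained the highest D cyclin under each length tried. The smallest p that an exact sign test over 2 libraries allows is 0.5, and ratios are therefore given with their spread alone.

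Ccne2 transcripts exceeded those of Ccne1. Ccne2 (chr4:11191351-11204779, plus strand) had 1310 and 1230 counts, or 36.8 and 36.3 CPM. Ccne1 (chr7:38097984-38107534, minus strand) had 469 and 420 counts, or 13.2 and 12.4 CPM. The groups of values do not overlap: per kb, Ccne2 stood at 10.4 ± 0.0981 and Ccne1 at 4.80 ± 0.206.

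Ccne1 was 0.470 and 0.448 times as abundant as Ccne2 per kb (0.459 ± 0.0154), and Ccne2 took 68.5 ± 0.722% of the E cyclin sum. This ratio was 0.806 ± 0.0270 with the median coding transcript length. The overlap of Ccne2 with Ints8 bears on the same ratio, and its part was not tested. The D cyclins together exceeded the E cyclins 22.8 ± 0.173 times per kb.

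Among the kinases, Cdk4 was the most abundant. Cdk4 (chr10:127063534-127067920, plus strand) had 9632 and 8943 counts, or 270.2 and 263.7 CPM, and 82.2 ± 1.42 CPM per kb, above 96.6% of the detected genes. Cdk2 (chr10:128697939-128705031, minus strand), the partner of cyclins E and A, had 2718 and 2571 counts, or 76.3 and 75.8 CPM. Cdk6 (chr5:3341485-3531008, plus strand), the other partner of the D cyclins, had 2161 and 2151 counts, or 60.6 and 63.4 CPM. In CPM, Cdk2 and Cdk6 were thus close, and every value of Cdk2 was above every value of Cdk6.

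Per kb the kinases were further apart, since Cdk6 has 13.989 kb of exonic sequence, most of it outside its coding length of 978 bases, and Cdk2 has 6.219 kb. Cdk2 stood at 12.2 ± 0.0507 and Cdk6 at 4.43 ± 0.141 CPM per kb. Cdk4 exceeded Cdk6 19.2 and 17.9 times (18.5 ± 0.912) and Cdk2 6.78 and 6.66 times (6.72 ± 0.0885). In CPM, with no division by length, Cdk4 exceeded Cdk6 4.31 ± 0.212 times and Cdk2 3.51 ± 0.0462 times. The median coding transcript length gave 2.82 ± 0.139 for Cdk4 to Cdk6, and the transcript with the longest coding region gave 4.11 ± 0.0542 for Cdk4 to Cdk2. Cdk4 took 83.1 ± 0.319% of the summed kinase level per kb, and was the highest kinase under each length tried. The order of Cdk2 and Cdk6 turned with the median coding transcript length, where Cdk2 was 0.368 ± 0.0133 times Cdk6, because that median is 697 bases for Cdk6, shorter than its coding region.

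Ccnd1 was also far above its kinase partners. Per kb, Ccnd1 exceeded Cdk4 4.17 and 4.11 times (4.14 ± 0.0437), and the D cyclins together exceeded Cdk4 and Cdk6 together 4.01 ± 0.0511 times. With the median coding transcript length these ratios were 1.71 ± 0.0180 and 1.49 ± 0.0313. For the E cyclins and Cdk2 the level was about even: their ratio was 1.26 and 1.23 (1.25 ± 0.0197) per kb of all exons. This ratio fell below 1 under the other lengths tried, for example 0.796 ± 0.0133 with the longest transcript. No direction is therefore given for the E cyclins against Cdk2.

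The inhibitor gene Cdkn1b (chr6:134920401-134925513, plus strand) followed Ccnd1 and Cdk4 in level. It had 6034 and 5664 counts, or 169.3 and 167.0 CPM, and 36.9 ± 0.354 CPM per kb, above 90.2% of the detected genes. Ccnd1 exceeded it 9.32 and 9.08 times per kb (9.20 ± 0.168), and 6.09 ± 0.111 times with the median coding transcript length. Cdkn1b in turn exceeded Cdk2, the kinase its protein inhibits, 3.02 times per kb in the means. With the transcript that has the longest coding region they were closer, at 36.9 ± 0.354 and 31.6 ± 0.131 CPM per kb.

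Rb1 (chr14:73183673-73325822, minus strand, 27 exons) had 1698 counts in each library, or 47.6 and 50.1 CPM. Per kb it stood at 8.12 ± 0.286, above 52.6% of the detected genes. Its relative Rbl1, the gene of p107, stood higher at 17.8 ± 0.409 CPM per kb, and Rbl2, the gene of p130, lower at 5.28 ± 0.143. Per kb of all exons Rb1 was 0.456 ± 0.00556 times Rbl1 and 1.54 ± 0.0957 times Rbl2. With the other lengths tried and with no length, Rb1 to Rbl2 ran from 1.23 to 1.30. Rb1 to Rbl1 ran from 0.458 to 0.478.

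**Figure D2:**
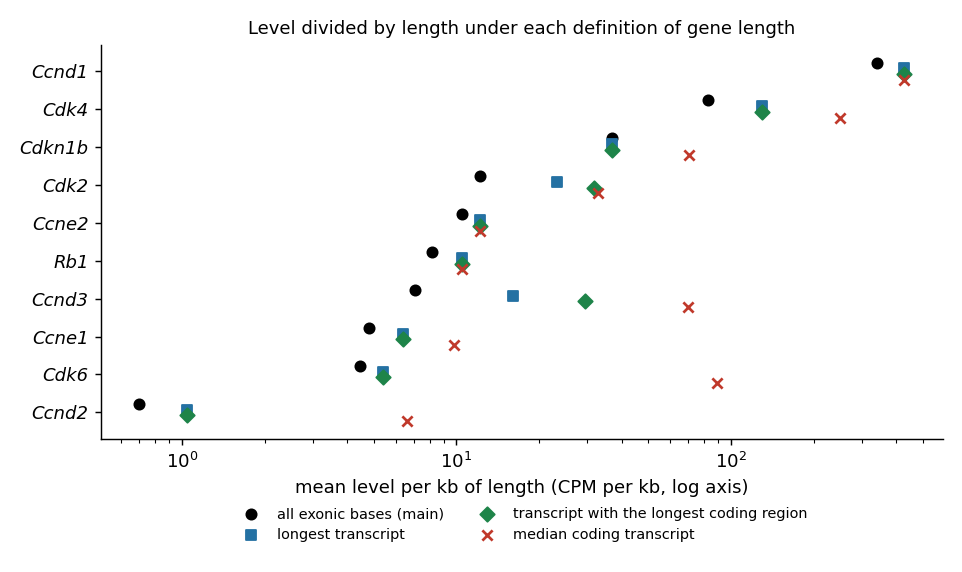
Mean level of each member in CPM per kb on a log axis, with the length taken as all exonic bases (black circles), the longest transcript (squares), the transcript with the longest coding region (diamonds) or the median coding transcript (crosses). Ccnd1 is highest, Cdk4 second and Ccnd2 lowest under each length, while Ccnd3 moves from 7.08 to 69.9 and Cdk6 from 4.43 to 89.0 CPM per kb.

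In order of level per kb the members were Ccnd1, Cdk4, Cdkn1b, Cdk2, Ccne2, Rb1, Ccnd3, Ccne1, Cdk6 and Ccnd2. The ranges of neighbours in this order did not overlap between the libraries. The closest neighbours were Ccne1 and Cdk6, at 4.80 and 4.43 CPM per kb, a ratio of 1.08 in the means, followed by Rb1 and Ccnd3 at 1.15. Ccnd3 stood above both Rb1 and Ccne2 under the 3 other lengths (16.1, 29.4 and 69.9 CPM per kb, against 12.1 for Ccne2 under each), so it is not ordered against them. With the median coding transcript length Ccnd3 also passed Cdk2, and Cdk6 at 89.0 CPM per kb passed Cdkn1b, Cdk2, Ccne2, Rb1, Ccnd3 and Ccne1. The place of Ccnd3 in this order thus holds only for the length used. That of Cdk6 held under each length other than the median coding transcript. Against the median of detected genes, 7.50 and 7.46 CPM per kb in replicates 1 and 2, 6 members lay above and 4 (Ccnd3, Ccne1, Cdk6 and Ccnd2) below.

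The members differed little between the libraries. An exact binomial test of each gene against counting error, adjusted by Benjamini-Hochberg over 13336 genes, called 1 of the 10 members, where it called 8.13% of all tested genes (4.46% as lower in replicate 2). The called member was Ccnd1, with a log2 ratio of replicate 2 to replicate 1 of -0.06 (95% counting interval -0.07 to -0.04, adjusted p = 6.28e-09 by that exact test, n = 2 libraries). Over all genes 489 calls were higher and 595 lower in replicate 2, against 374 and 921 when scaled by total counts. When the spread between these libraries was allowed for with edgeR's exact test, 15 genes were called in all. None of the 10 was called by it and 0 had an unadjusted p under 0.05 (Ccnd1: adjusted p = 1). That spread was estimated from the same 2 libraries, so it holds the differences under test and makes calls rare. No conclusion on the members is drawn from the lack of calls.

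The other 9 members had log2 ratios from -0.09 for Ccne1 to 0.07 for Rb1, with adjusted p from 0.358 to 0.980 by the exact binomial test. Their intervals set limits: for Cdk4 the ratio lay between -0.08 and 0.01, and for Ccnd2, the member with fewest counts, between -0.25 and 0.29. Replicate 2 was lower for 7 members and higher for 3 (Ccnd2, Cdk6 and Rb1), with the same signs under the other scalings tried, in a pair of libraries where the median over all tested genes was -0.0016. The median size of the log2 ratio was 0.03 over the members and 0.06 over the 10027 tested genes at 5 CPM or more.

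**Figure D3:**
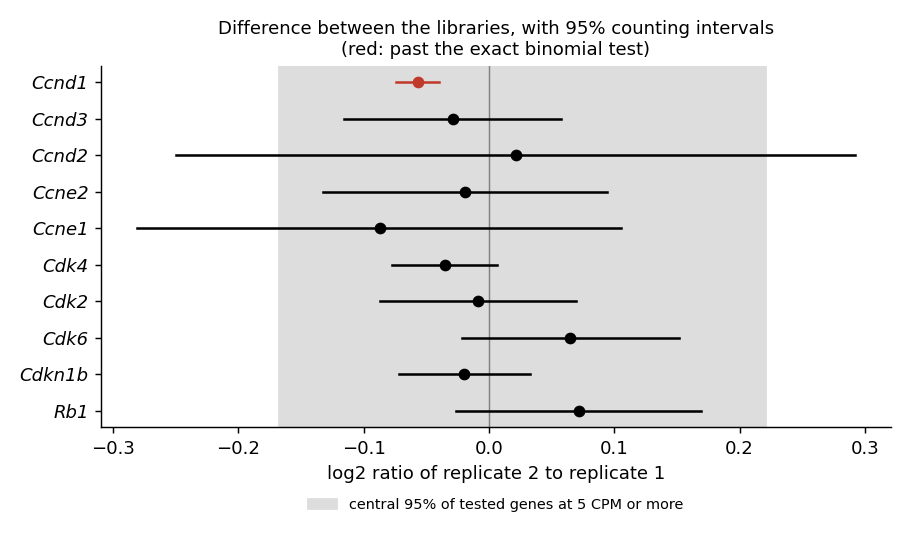
Log2 ratio of replicate 2 to replicate 1 for each member, with exact 95% counting intervals; grey marks the central 95% of the log2 ratios of 10027 tested genes, -0.17 to 0.22, and red the gene past the exact binomial test. All 10 ratios lie inside the grey band, and only the interval of Ccnd1 lies wholly to one side of 0.

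The rest of the G1/S pathway was read from 7 lists fixed by name. E2F factors and their DP partners act on DNA as pairs, and all 12 genes of the list of p107, p130, E2F and DP were detected. Tfdp1, the gene of the main DP partner, was highest at 43.3 ± 1.97 CPM per kb. Among the 8 E2F genes, E2f4, a repressor that works with p107 and p130, led at 20.9 ± 0.0286 CPM per kb. The activators E2f1 and E2f3 stood at 14.5 ± 0.393 and 11.3 ± 0.0918, and the activator E2f2 was lowest at 1.57 ± 0.111. E2f8, an atypical repressor, stood at 12.6 ± 0.485 and its relative E2f7 at 2.98 ± 0.0466. With all exons as the length, Rb1 itself lay below 8 of these 12 genes. Tfdp1 and Tfdp2 were called lower in replicate 2 by the exact binomial test, 2 of 12 tested, against 8.13% called and 4.46% called lower over all tested genes.

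The other CDK inhibitors fell into 2 classes. Cdkn1a, the gene of p21, stood at 142 and 136 CPM, which is 39.0 ± 1.24 CPM per kb, close to Cdkn1b: Cdkn1b was 0.947 ± 0.0211 times Cdkn1a per kb, 1.21 ± 0.0270 times in CPM and 0.554 ± 0.0123 times with the longest transcript, so they are not ordered. Of the INK4 genes, whose proteins bind CDK4 and CDK6, Cdkn2c (p18) stood at 16.9 ± 0.413 and Cdkn2d (p19) at 11.7 ± 1.22 CPM per kb. Cdkn2a (p16 and ARF), Cdkn2b (p15) and Cdkn1c (p57) had no count in either library. Detection was thus 3 of 6 in this list, against 64 of 65 in the other 6 lists together.

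The list of ubiquitin ligase parts that remove p27 and the cyclins, with the kinase gene Gsk3b, was detected in full, 14 of 14. The adaptor genes Ddb1 (145.6 ± 2.56 CPM per kb) and Skp1a (141 ± 7.80) were highest per kb of all exons. The F-box gene Fbxo31, whose protein targets cyclin D1, was lowest at 3.56 ± 0.149, and Skp2, the F-box gene for p27, was next at 3.91 ± 0.130. The cofactor gene that SKP2 needs for p27, Cks1b, stood at 54.8 ± 0.600 CPM per kb. Fbxw7, the F-box gene for cyclin E, stood at 9.14 ± 0.0994. In this list 3 of 14 were called (8.13% over all genes), Skp1a as higher and Cul1 and Ddb1 as lower in replicate 2.

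All 8 genes of CDK activation were detected, with the inhibitory kinase gene Wee1 (27.5 ± 0.259 CPM per kb) and the phosphatase gene Cdc25b (21.4 ± 0.620) highest, and Mnat1 (5.41 ± 0.179), of the CDK-activating kinase, and Cdc25a (6.52 ± 0.305) lowest. All 7 genes of the MuvB list were detected, led by Foxm1 at 22.5 ± 0.717 CPM per kb, with 1 of 7, Lin54, called (lower in replicate 2). Of the later cyclins and Cdk1, 5 of 6 were detected, with the mitotic cyclin gene Ccnb2 (71.7 ± 1.01) and the S-phase cyclin gene Ccna2 (55.8 ± 2.98) highest per kb of all exons. In that list 1 of 5 tested, Ccna2, was called (lower in replicate 2). Over all tested genes 8.13% were called and 4.46% called lower. Ccna1, a cyclin gene of the germ line, had no count.

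All 18 E2F target genes of DNA replication were detected. Per kb of all exons, Rrm2 (135.7 ± 5.90 CPM per kb) and Pcna (123 ± 0.225) were highest, with Orc1 (3.18 ± 0.128) lowest. The list median was 24.9 and 23.4 CPM per kb in replicates 1 and 2, against 9.22 and 9.35 for the members. Of these 18 targets 8 were called, against 8.13% called and 4.46% called lower over all tested genes, Gmnn as higher and 7 others (Mcm2, Mcm4, Mcm5, Mcm6, Mcm7, Rrm1 and Rrm2) as lower in replicate 2. A test of counting error calls smaller differences where counts are higher, and the shares over all tested genes are not matched for count. The 7 targets called lower held 5500 to 13813 counts per library, with log2 ratios from -0.10 to -0.06. Ccnd1 was also the member called lower, and a link between it and these targets was not tested. Each called gene of the 7 lists kept its direction under the other scalings tried, and edgeR's exact test called none of them. Some calls of the exact binomial test lay at its threshold and were lost. With upper-quartile factors the adjusted p was 0.0669 for Mcm4, 0.0568 for Tfdp2 and 0.0562 for Ddb1. Leaving Gm26917 and Gm42418 out of the totals gave 0.0723 for Mcm4, 0.0600 for Tfdp2, 0.0681 for Ddb1 and 0.0501 for Mcm6. With no filter it was 0.0640 for Mcm4 and 0.0649 for Tfdp2.

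Orders within the lists depended on the length. Ccna2 stood above Ccnb2 with the longest transcript, at 76.8 against 71.7 CPM per kb, and Cdk1 was highest of that list at 109.5 with the median coding transcript. Pcna stood above Rrm2 with the longest transcript, at 195.2 against 171.4, while Mcm4 (268.5) and Mcm7 (211.2) passed Pcna with the median coding transcript. With that median, Cul1 passed Skp1a and Ccnh passed Wee1, and Ddb1 (628.5) and Rrm2 (447.0) stood above Ccnd1 (428.0). Tfdp1, E2f4 among the E2F genes and Foxm1 led their groups under each length tried. At the low end, Cdc25a was not among the 2 lowest of its list under the 3 other lengths. Fbxo31 was not the lowest of its list with the median coding transcript. Skp2 was not next to lowest with that length or with the transcript of the longest coding region.

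**Figure D4:**
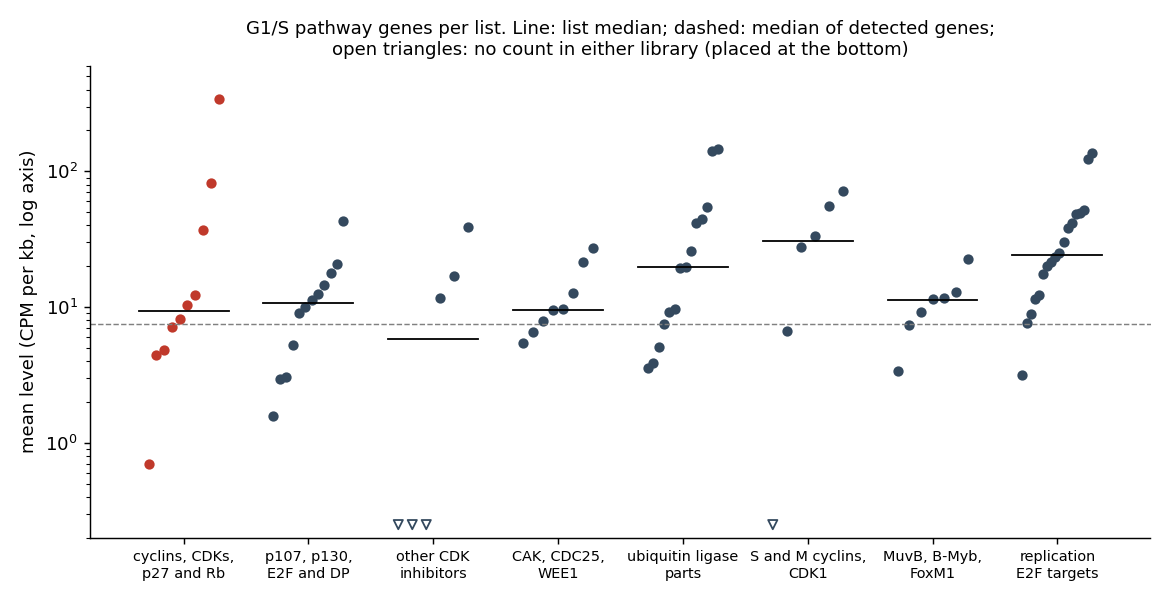
Mean level in CPM per kb on a log axis for each gene of the members (red) and of the 7 pathway lists, with list medians as lines, the median of detected genes dashed and genes with no count as open triangles at the bottom. With all exons as the length Ccnd1 at 339.9 CPM per kb is the highest gene shown, above Ddb1 at 145.6 (an order that turns with the median coding transcript length), and the 4 genes with no count are Cdkn1c, Cdkn2a, Cdkn2b and Ccna1.

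The genes beside Ccnd1 on chromosome 7 did not share its level. The nearest protein-coding genes at lower coordinates were LTO1 at 2.93 ± 0.00239 CPM per kb, Fgf15 with 8 and 4 counts, and Fgf4 with no count. Those at higher coordinates were the channel gene Tpcn2 at 2.29 ± 0.112 CPM per kb, 1810010D01Rik with 2 and 4 counts, and Mrgprf with no count. All 6 were thus far below Ccnd1 at 339.9 CPM per kb, and LTO1 overlaps it.

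Of the 10 members, 4 (Ccnd1, Cdk4, Cdkn1b and Cdk6) lay above each of their nearest protein-coding neighbours in CPM per kb, up to 3 on each side. For Cdk6 the margin was small, 4.43 against 4.07 for Fam133b. The other 6 had at least 1 higher neighbour, such as Itm2b at 97.4 ± 0.203 beside Rb1 and Esrp1, an epithelial splicing factor gene, at 43.4 ± 1.06 beside Ccne2. Copy number was not measured, so neighbours' levels are a description only.

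**Figure D5:**
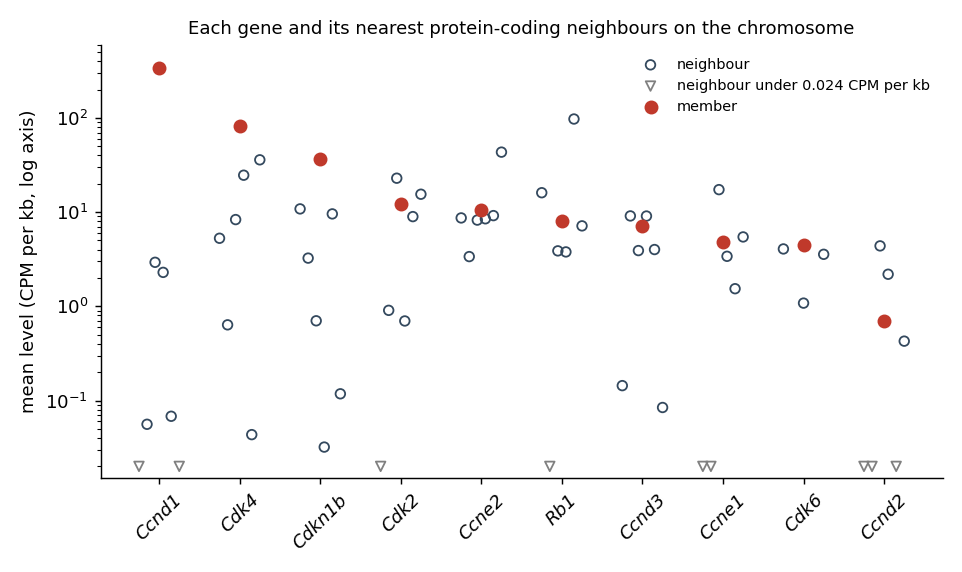
Mean level in CPM per kb on a log axis for each member (red) and its nearest protein-coding neighbours (open circles, or triangles at the bottom where near 0), with members in order of level. Ccnd1 at 339.9 stands alone above neighbours of at most 2.93 CPM per kb, while Ccnd2 at 0.700 lies below Tigar at 4.38.

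Start-site sequence was looked at for the members in the RefSeq promoter table (GRCm38.p6), which matched 6 of the 10: Ccnd3 with 2 start sites, Ccne1, Cdk2, Cdk4, Cdk6 and Cdkn1b. Ccnd1, Ccnd2, Ccne2 and Rb1 were not matched. The 250 bases before each start were searched on both strands for the E-box CACGTG (its own reverse complement), for CCAAT, for the GC box GGGCGG and for the E2F forms TTTCGCGC, TTTGGCGC, TTTCCCGC and TTTGCCGC. The E-box is the site that MYC with MAX, USF and related factors are known to bind. CDK4 is a known MYC target.

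The window of Cdk4, the highest of the 6 matched members, is shown because it held 4 CACGTG matches (capitals), with first bases at -172, -118, -98 and -11 from the start (chr10:127063285-127063534, plus strand). Among 32851 windows of this length, 6.02% held at least 1 match and 7 windows held 4 or more. Windows of a chromosome that holds no member were left out, here and in the shares of all windows below.
Cdk4: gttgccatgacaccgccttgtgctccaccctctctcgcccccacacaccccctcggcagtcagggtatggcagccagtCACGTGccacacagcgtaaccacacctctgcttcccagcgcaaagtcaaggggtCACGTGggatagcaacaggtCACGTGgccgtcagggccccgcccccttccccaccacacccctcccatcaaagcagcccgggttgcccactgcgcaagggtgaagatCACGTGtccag
Cdk6 held 1 CACGTG and the other 5 windows none. For contrast the Cdkn1b window (chr6:134920151-134920400, plus strand), with no annotated exon inside it, is shown with its 2 CCAAT matches in capitals, at -161 and -35. CCAAT was found in 33.9% of all windows, and 10.1% held 2 or more.
Cdkn1b: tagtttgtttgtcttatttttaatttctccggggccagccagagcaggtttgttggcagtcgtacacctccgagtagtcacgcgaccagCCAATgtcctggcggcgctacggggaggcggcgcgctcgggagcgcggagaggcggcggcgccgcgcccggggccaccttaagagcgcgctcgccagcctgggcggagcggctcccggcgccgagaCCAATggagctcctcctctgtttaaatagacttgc
The listed E2F forms occurred in 1.86% of all windows and, among the members, in that of Cdk2 alone. GGGCGG was in 32.7% of all windows and in each member window other than that of Cdk6. These are matches of letters, and binding was not measured.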

How the data were processed

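RNA from 2 TUBO samples was made into stranded mRNA libraries, per the labels' protocols. The authors deposited raw counts for each gene symbol, in 2 columns matched to the replicates by name. Per the submitters' processing notes the tools were R 4.1.1, STAR 2.7.9a, FastQC 0.11.9, Cell Ranger 3.0.0 and featureCounts, with the mm10 build and no roles given. The sources used here do not give the annotation, the strand setting or the treatment of multiply mapped reads.

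Counts were scaled with TMM in edgeR 4.0.16 (R 4.3.3). Lengths and places came from GENCODE M21 (GRCm38, the same assembly as mm10), where 98.1% of symbols had a single match. filterByExpr kept 13336 genes with 99.95% of counts. Each was tested between libraries with a two-sided exact binomial test and Benjamini-Hochberg adjustment, calling adjusted p under 0.05. The test covers counting error only. On libraries simulated for this comparison with counting noise over 13336 genes, it called 0 genes when none was changed. In a run with changed genes it called 78% and 87% of those changed 1.5-fold and 2-fold, and 8 unchanged genes. The libraries differed beyond counting noise (chi-square 6.40 times its degrees of freedom) and were kept as 2 samples.

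The members, lists and ratios were chosen with earlier results of these data known. The rule for named genes takes all members, the pocket protein, E2F and inhibitor lists, the 2 highest and 2 lowest genes of each other list with those undetected or called, and the 3 nearest genes in level or position. A gene that the rule names is not reported here. Cks1b, Fbxw7, Ccnh and Cdk1 fall outside it and were chosen after their values were seen. Size factors from DESeq2 1.42.0, other scalings, filters, detection minimums and lengths were alternatives. The length of the transcript with the longest coding region, and totals without Gm26917 and Gm42418, were added after seeing the data.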

Additional observations from a re-analysis of the deposited data

How the results depend on the processing

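Only 1 group was measured, the depth of each library limits genes of few counts such as Ccnd2, and a level per kb depends on which transcripts are made, which gene counts do not show. Scaling by total counts, DESeq2 size factors or upper-quartile factors moved no mean level beyond the spread between the libraries. These factors are balanced around 1 over the 2 libraries, so a mean over both could hardly move. The lack of movement is therefore no check of the levels. Ratios of genes within a library cannot change with its scaling. Those scalings moved no total of calls by over 1.5 times, but calls lower in replicate 2 went from 595 to 921 with total counts. The median of the members, 62.1 CPM, was 69.4 CPM when Gm26917 and Gm42418 were left out of the totals. Using either library alone kept the order of the 10 members.

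Ratios moved with the length used. For the longest transcript, the transcript with the longest coding region, the median coding transcript and no length, in that order, Ccnd1 to Ccnd2 was 411, 411, 64.6 and 243, and Ccnd1 to Ccnd3 was 26.6, 14.5, 6.12 and 25.7. In the same order Ccne1 to Ccne2 was 0.526, 0.526, 0.806 and 0.350, Cdk4 to Cdk6 was 24.2, 24.2, 2.82 and 4.31, and Cdk4 to Cdk2 was 5.58, 4.11, 7.65 and 3.51. Ccnd1 to Cdk4 was 3.29, 3.29, 1.71 and 5.995, and the D to the E cyclins 24.0, 24.7, 23.0 and 33.9. The E cyclins to Cdk2 turned direction each time, at 0.796, 0.586, 0.670 and 0.648. Cdk2 to Cdk6 turned to 0.368 with the median coding transcript, and Cdkn1b to Cdkn1a to 1.21 with no length. With the median coding transcript 3 of 10 members kept their rank.

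Between the libraries edgeR's exact test called 15 genes in place of 1084, and 0 members in place of 1. Its spread came from the same 2 libraries, which makes calls rare. No paired analysis was possible because there is only 1 group.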
